A study of Bos taurus with 30 samples.

Results

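Endometrial cells brushed at 7 days postpartum (DPP) were compared between 5 inflamed dairy cows that stayed healthy and 4 inflamed dairy cows that went on to have cytological endometritis (CYTO) at 21 DPP. These 9 cows, of 30 in the series, were chosen as those with at least 18% polymorphonuclear cells (PMN, mostly neutrophils) in the uterine smear taken at 7 DPP. The outcome at 21 DPP then divided them: the healthy cows s1066, s1570, s1831, s2053 and s2392 were back under the PMN threshold, and the CYTO cows s1944, s2039, s2064 and s2184 were at or above it. Values per cow are given below in this order, healthy cows before CYTO cows. Cow s1378, labelled sub-clinical, is outside the set the study used and was left out unless it is named. The paper excluded sequenced cows from its set for vaginal mucus scores that pointed to possible clinical metritis at sampling.

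All 9 animals were Holstein-Friesian cows of mixed parity from a single commercial herd, and neither group had been given an experimental agent. Among these cows, selected for inflammation, the groups are defined by outcome and not by a treatment. Each library was made from the polyadenylated RNA of 1 cow. A cytobrush takes epithelium, stroma and immune cells together, and in such bulk samples fewer cells of a type and less RNA per cell cannot be told apart. Smears of the CYTO cows held on average more PMN at sampling than those of the healthy cows, although the ranges overlapped; the share in each cow was not analysed here. The question was which transcripts, among cows that were all inflamed, already differed between those that resolved the inflammation and those in which it persisted.

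After calving the bovine uterus is almost always colonised by bacteria, and neutrophils enter the endometrium to clear them. Bacterial products are read by Toll-like and NOD-like receptors, which act through the transcription factor NF-kB to switch on cytokines such as TNF and IL-1, while inflammasomes assemble around NOD-like receptors and pyrin to release mature IL-1beta. The same pathway induces its own inhibitors, and IL-17 and the granulocyte growth factor CSF3 (G-CSF) sustain the supply and survival of neutrophils.

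Abundance is given as CPM, reads of a gene relative to all counted reads of its library on a scale common to all libraries, and a log2 fold change is the difference of mean log2(CPM + 1), CYTO minus healthy. The 9 libraries held 11922966 to 26318967 counted reads, so that a single read was worth 0.038 to 0.0839 CPM. The 22 tested epithelial marker genes had a mean log2(CPM + 1) of 4.03 to 6.42 and the 18 stromal ones 7.68 to 9.89 in these cows. Only 8 of 30 T and NK cell markers, 2 of 13 B and plasma cell markers and none of 11 erythrocyte markers were tested. Markers were matched by gene symbol, and 1168 listed genes have none. A marker can therefore be missing for low abundance or for lack of a matching symbol.

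Of 10432 genes tested with limma, 43 (0.412%) passed both an adjusted p of 0.05 (Benjamini-Hochberg) and a log2 fold change of 1 in size, and are referred to here as called. All 43 were more abundant in the CYTO cows, with folds of 2.05 to 52.6 (median log2 fold change 3.06) and adjusted p from 0.00155 to 0.0497. For each of the 43, the lowest CYTO cow lay above the highest healthy cow, an arrangement seen in this direction for 147 genes (1.41%) of the whole table. They included the growth factor CSF3 and the chemokine CCL20, the inflammasome genes NLRP3, NLRP12 and MEFV, the NF-kB inhibitors NFKBIA and TNFAIP3, TNF and IL1A, and the receptors CD69, GPR84 and FFAR2, while 24 of the 43 belonged to no gene list. The called genes included 15 that the study had itself picked from these libraries, and 28 others. All 43 come from the libraries that the study compared, so neither part is independent evidence. Nor are the gene lists below, whose called members include NLRP3, IL1A, NFKBIA, TNFAIP3, TNF, CD274 and IRF1, all named by the study.

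**Figure D1:**
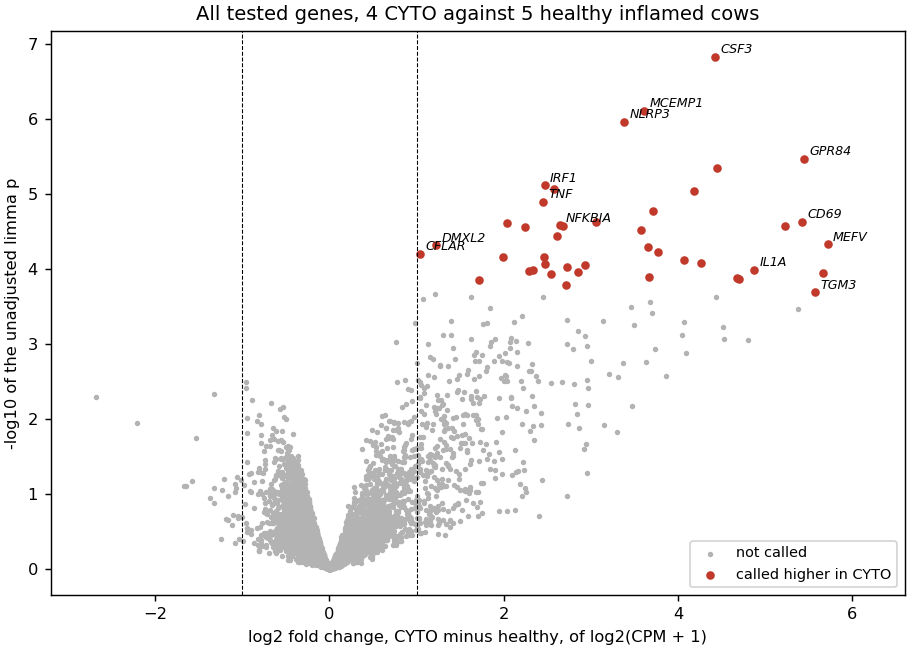
Each point is 1 of the 10432 tested genes, with its log2 fold change between 4 CYTO and 5 healthy inflamed cows on the horizontal axis and the -log10 of its unadjusted limma p on the vertical axis. Dashed lines mark a log2 fold change of 1 in either direction. The 43 called genes, in red, all lie on the right, while most grey points with small changes lie close to 0.

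No gene was called lower in the CYTO cows by limma, although 93 genes (0.891%) were lower at an unadjusted p under 0.05, against 411 (3.94%) that were higher. This balance depended on the scaling and on s1570: it was 44 lower and 453 higher with TMM factors, and 689 lower and 614 higher without s1570. A log2 fold change above 0, however small, was seen in 35.9% of the tested genes with the CPM as deposited, where the median over all genes was -0.08 (0.00 with TMM factors). The count by chance alone would be 522 over both directions, and 504 were seen. Quasi-likelihood tests with edgeR on the reads recovered from the CPM called 14 genes (0.134%), all among the 43 and all higher, with 3.93% higher and 0.575% lower at an unadjusted p under 0.05. DESeq2's Wald test called 128 higher (1.23%), which included all 43, and 1 lower (0.00959%), with 4.57% higher and 1.1% lower unadjusted. The size of the list rested on single animals: it held 142 genes without cow s1570, and 2 to 16 when any cow other than s1570 or s1944 was left out.

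CSF3 (ENSBTAG00000021462), the growth factor that drives production of neutrophils, had the smallest p of all genes. Its level was 0.0851, 0.739, 0.0839, 0.0541 and 0 CPM in the healthy cows, and 20.97, 43.9, 21.6 and 16.8 CPM in the CYTO cows. The transcript was close to the detection limit in every healthy cow, with 15 reads in these 5 libraries together, and was well above it in all 4 CYTO cows, with 2163 reads. As no healthy cow reached 1 CPM, CSF3 could pass the filter (1 CPM in at least 4 of the 9 libraries) only through the 4 CYTO cows. That its groups did not overlap was therefore fixed by the filter. It differed by 4.43 on the log2 scale (SE, standard error, 0.35, limma adjusted p = 0.00155), and 7.17 by edgeR, which adds no full CPM to such low values.

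The chemokine CCL20 (ENSBTAG00000021326), which draws dendritic cells and lymphocytes that carry CCR6, was at 0.170, 0.134, 1.34, 1.46 and 0.240 CPM in healthy cows and at 6.63, 16.4, 20.3 and 41.8 CPM in CYTO cows. The groups were well apart, and cow s1570 was the lowest of all 9 for this gene. On the log2 scale this was a difference of 3.57 with SE 0.50 (limma adjusted p = 0.0175). IL17 (ENSBTAG00000002150), listed by RefSeq as a synonym of IL17A, the cytokine that leads epithelial cells to make CSF3 and CCL20, was at 0.170, 0.403, 0.168, 0 and 0.0479 CPM in healthy cows and 2.96, 1.72, 19.7 and 31.6 CPM in CYTO cows. Levels in s2064 and s2184 were several times those of the other CYTO cows. As for CSF3, no healthy cow reached 1 CPM, so the filter itself required that the groups did not overlap. At a log2 fold change of 3.01 (SE 0.71) IL17 was not called by limma (adjusted p = 0.172) or edgeR (adjusted p = 0.068), but was by DESeq2 (adjusted p = 4.13e-08). IL23A, a subunit of the cytokine IL-23 that maintains IL-17-producing lymphocytes, was at 7.93 to 12.4 CPM in healthy cows and 18.5 to 23.9 CPM in CYTO cows, without overlap but with a log2 fold change of only 0.99 (adjusted p = 0.0892). Of the 8 tested genes of this IL-17 axis 2 were called and 4 had groups that did not overlap (CSF3, CCL20, IL23A and IL17), with a median log2 fold change of 1.23 beside -0.08 over all tested genes. LCN2, TRAF3IP2, IL17RA and IL17RC, the remaining members, had an unadjusted p above 0.05, and IL17F and IL12B were not analysed here. As CSF3, CCL20 and IL17 were named by the study from these libraries, this list is not independent of them.

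**Figure D2:**
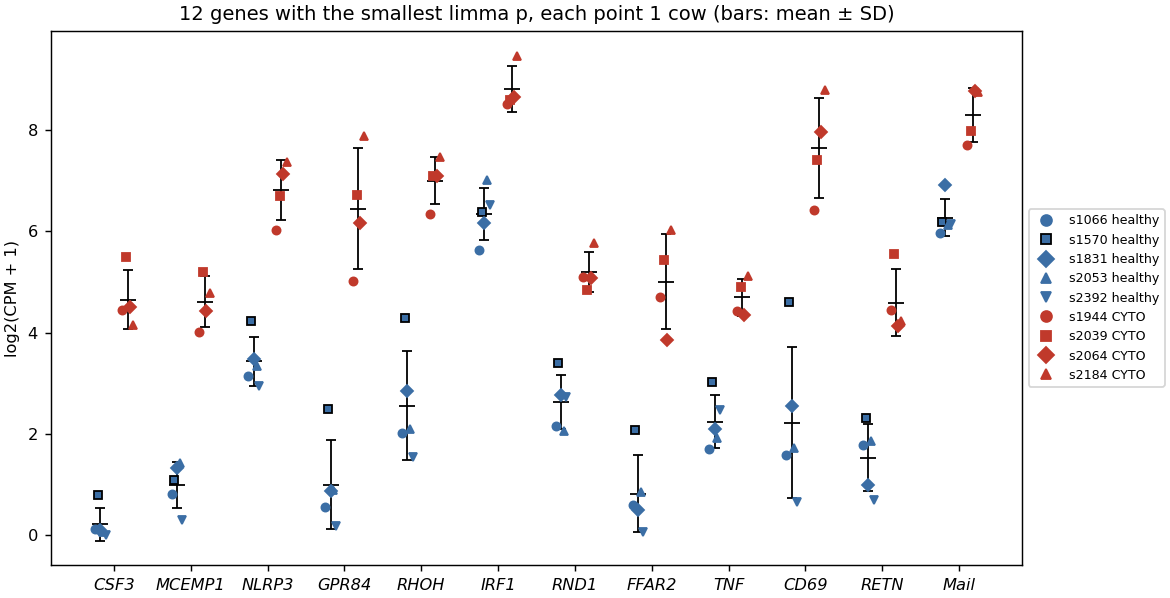
Points are single cows, healthy in blue and CYTO in red, with the group mean ± SD as bars, for the 12 named genes with the smallest p on a log2(CPM + 1) axis. Cow s1570 has a black outline. All 4 CYTO cows lie above all 5 healthy cows for every gene, which the choice of genes required, and s1570 is the highest healthy cow for 9 of the 12.

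The inflammasome sensors NLRP3, MEFV, NLRP12 and NAIP and the cytokine IL1A were called higher in the CYTO cows. NLRP3 (ENSBTAG00000001273), which assembles the inflammasome that activates caspase-1, was at 7.83, 17.9, 10.2, 9.21 and 6.76 CPM in healthy cows and 64.2, 104, 141 and 165 CPM in CYTO cows. The lowest CYTO cow thus exceeded the highest healthy cow, s1570, by a wide margin. Limma gave a log2 difference of 3.38 (SE 0.33) at an adjusted p of 0.0038, and NLRP3 and MCEMP1 were the 2 genes called whichever of the 9 cows was left out. CSF3 was called in each of the 5 fits that left out a healthy cow. In fits that left out a CYTO cow it fell below the filter and was not tested. MEFV, which codes for pyrin, the sensor mutated in familial Mediterranean fever of humans, was at 4.001, 38.2, 3.27, 5.90 and 1.15 CPM in healthy cows and 115, 256, 406 and 1193 CPM in CYTO cows. This was the greatest log2 fold change of the called genes (5.72, SE 0.85, adjusted p = 0.0239). NLRP12 (log2 fold change 3.77, adjusted p = 0.027), a NOD-like receptor that in mice restrains NF-kB, and NAIP (2.29, adjusted p = 0.0324), a sensor of bacterial flagellin and secretion needles, had smaller changes.

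IL1A, a cytokine released by damaged or activated cells, was at 10.9, 124, 16.1, 16.1 and 3.31 CPM in healthy cows and 266, 614, 594 and 790.2 CPM in CYTO cows. Cow s1570 was several times above the other healthy cows but still below the lowest CYTO cow. Between groups the mean was higher by 4.87 on the log2 scale, with SE 0.79 and adjusted p = 0.0324. IL1B, the substrate of the inflammasome, was at 46.9, 714, 38.9, 66.5 and 7.00 CPM and at 1392, 2359, 2788 and 4056 CPM in healthy and CYTO cows. Its groups did not overlap either, but the spread among healthy cows was large, and IL1B missed the threshold (log2 fold change 5.38, SE 1.02, adjusted p = 0.0681). The antagonists of the same receptor overlapped between groups: IL1RN, the soluble antagonist, was at 82.4 to 6017 CPM in healthy cows, with s1570 the highest, and at 3634 to 8360 CPM in CYTO cows (3.15, adjusted p = 0.499), while the decoy receptor IL1R2 had 2.84 (adjusted p = 0.438). In the list of the IL-1 family and inflammasomes, all 15 tested genes had a higher mean in CYTO cows (against 35.9% of all genes). Of these 3 were called (NLRP3, NLRP12 and IL1A), against 0.412% of all tested genes. An unadjusted p under 0.05 was seen in 12, against 3.94% higher over all genes. The median log2 fold change was 1.70 beside -0.08 over all tested genes. The mean log2(CPM + 1) of the list was 3.101 to 4.77 in healthy cows and 5.40 to 6.46 in CYTO cows.

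Of 22 tested genes of the NF-kB response 4 were called, namely NFKBIA, TNFAIP3, ZC3H12A and NFKB2. NFKBIA (ENSBTAG00000016683), the inhibitor that holds NF-kB in the cytoplasm, was at 89.3, 249, 108, 96.1 and 101 CPM in healthy cows and at 420.3, 781, 774 and 1210.0 CPM in CYTO cows. Healthy cows other than s1570 lay within a narrow range, and s1570 stood above them. It differed by 2.64 on the log2 scale (SE 0.37, limma adjusted p = 0.0171). TNFAIP3, the enzyme A20 that removes the ubiquitin chains on which the signal depends, was at 17.2, 26.1, 8.39, 20.3 and 13.6 CPM and at 57.1, 102, 143 and 167 CPM (2.69, SE 0.37, adjusted p = 0.0171). ZC3H12A, an RNase that degrades cytokine transcripts, was at 9.73 to 16.6 CPM in healthy cows and 46.8 to 133 CPM in CYTO cows (2.25, adjusted p = 0.0171). NFKB2, the precursor of the p52 subunit, had a smaller change, from 38.2 to 90.9 CPM in healthy cows to 164 to 304 CPM in CYTO cows (1.72, adjusted p = 0.0356). The table also lists as Mail the gene that RefSeq names NFKBIZ, a nuclear partner of NF-kB that is needed for a subset of its targets; it was at 62.0, 71.9, 119, 68.9 and 69.9 CPM in healthy cows and 209, 253, 437 and 428 CPM in CYTO cows (2.04, SE 0.28, adjusted p = 0.0171). In all, 22 of the 22 had a higher mean in CYTO cows, and the 4 called were 18.2%, against 0.412% of all tested genes. An unadjusted p under 0.05 was seen in 15 (68.2%, against 3.94% higher over all genes). The groups did not overlap for 12 (54.5%, against 1.41%). The median log2 fold change was 1.24 beside -0.08 over all tested genes. The subunit genes NFKB1 (1.21, adjusted p = 0.051) and RELB (1.27, adjusted p = 0.183) were among the 12 and were not called.

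TNF, the archetypal NF-kB target, was at 2.26, 7.19, 3.27, 2.82 and 4.55 CPM in healthy cows and at 20.45, 28.9, 19.5 and 33.6 CPM in CYTO cows. The CYTO cows were close together, and each was above all healthy cows. On the log2 scale this was a difference of 2.45 with SE 0.31 (limma adjusted p = 0.0147). TNF was the only called gene of the 12 inflammatory cytokines tested (8.33%, against 0.412% of all tested genes). Of these 11 had a higher mean and 6 an unadjusted p under 0.05 (50.0%, against 3.94% higher over all genes). The median log2 fold change was 1.51 beside -0.08. PTX3, a soluble pattern recognition protein, was at 5.42 to 37.2 CPM in healthy cows and 65.3 to 459 CPM in CYTO cows, without overlap (3.68, adjusted p = 0.0585). OSM, a cytokine of the IL-6 family that neutrophils can release, had 1.01 to 36.6 CPM and 66.0 to 295 CPM (4.43, adjusted p = 0.053). IL6 itself overlapped between groups, at 14.3, 2.02, 0.0839, 5.79 and 0.192 CPM against 7.85, 19.1, 30.2 and 53.9 CPM (2.82, adjusted p = 0.362), and so did the anti-inflammatory IL10 (2.15, adjusted p = 0.15).

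Of 12 tested genes that restrain immune cells 1 was called. CD274, which codes for PD-L1, the ligand that inhibits T cells, was at 9.79, 62.1, 9.06, 14.5 and 2.49 CPM in healthy cows and 161, 313, 373 and 206 CPM in CYTO cows. Here s2064 was the highest CYTO cow rather than s2184. Limma gave a log2 difference of 4.27 (SE 0.68) at an adjusted p of 0.0306. SOCS3, a feedback inhibitor of cytokine receptors, did not overlap but was not called (3.46, adjusted p = 0.0673). All 12 genes of this list of inhibitory signals had a higher mean in CYTO cows, and the 1 called was 8.33%, against 0.412% of all tested genes. An unadjusted p under 0.05 was seen in 7 (58.3%, against 3.94% higher over all genes), and the median log2 fold change was 1.92 beside -0.08.

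Of 16 tested genes of leukocyte activation 5 were called (31.2%, against 0.412% of all tested genes), namely MCEMP1, GPR84, CD69, SLAMF1 and CD274. The study had named all of these from the same libraries, so this count is not independent of it. MCEMP1 (ENSBTAG00000004714), a membrane protein of mast cells and myeloid cells, was at 0.766, 1.14, 1.51, 1.68 and 0.240 CPM in healthy cows and 15.2, 35.8, 20.7 and 26.4 CPM in CYTO cows. Cow s1570 was not the highest healthy cow for this gene and lay near the others. Between groups the mean was higher by 3.61 on the log2 scale, with SE 0.34 and adjusted p = 0.0038. GPR84, a receptor for medium-chain fatty acids that activated phagocytes carry, was at 0.468, 4.64, 0.839, 0.866 and 0.144 CPM and at 31.5, 104, 70.6 and 237 CPM (5.44, SE 0.60, adjusted p = 0.00884). FFAR2, the receptor through which short-chain fatty acids of bacterial origin act on neutrophils, was at 0.511, 3.23, 0.419, 0.812 and 0.0479 CPM and at 25.2, 42.5, 13.5 and 64.0 CPM (4.19, SE 0.51, adjusted p = 0.0118). For both fatty acid receptors s1570 was the highest healthy cow and s2184 the highest CYTO cow.

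CD69, an early activation marker of lymphocytes that granulocytes can also carry, was at 2.001, 23.5, 4.87, 2.33 and 0.575 CPM in healthy cows and 85.4, 169, 249 and 442 CPM in CYTO cows (5.42, SE 0.74, adjusted p = 0.0171). SLAMF1, a receptor that binds its own kind on neighbouring leukocytes, was at 0.719 to 2.55 CPM and 8.19 to 25.7 CPM (2.61, adjusted p = 0.0201), and TARM1, an activating receptor of myeloid cells, at 0.252 to 1.81 CPM and 4.14 to 14.6 CPM (2.54, adjusted p = 0.0324). Of the 16 genes of leukocyte activation 14 had a higher mean in CYTO cows, and the median log2 fold change was 1.55 beside -0.08 over all tested genes. Among genes of signalling inside leukocytes, RHOH, a small GTPase of blood cells that does not hydrolyse GTP, was at 3.07, 18.6, 6.21, 3.303 and 1.92 CPM and at 80.6, 137, 136.0 and 176 CPM (4.44, SE 0.50, adjusted p = 0.00939). RND1, a related GTPase that loosens the actin skeleton, had 3.195 to 9.54 CPM in healthy cows and 27.6 to 53.8 CPM in CYTO cows (2.57, adjusted p = 0.0118). PLEK (pleckstrin, a protein kinase C substrate of platelets and leukocytes), CASS4 (an adhesion scaffold) and PDE4B (which breaks down cyclic AMP) were called with log2 fold changes of 4.68, 4.70 and 2.85.

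Of 13 tested neutrophil markers 1 was called. CSF3R, the receptor of CSF3, was at 7.83, 47.4, 6.54, 9.91 and 3.36 CPM in healthy cows and 86.5, 287, 154 and 284 CPM in CYTO cows, and was that gene (4.07, SE 0.64, adjusted p = 0.0292). S100A9, the larger subunit of calprotectin, did not overlap between groups, at 65.0, 421, 164, 50.7 and 16.8 CPM against 589, 617, 526 and 633 CPM (2.81, adjusted p = 0.248). S100A8, its partner, did overlap: it was at 51.3, 655, 298, 47.1 and 13.6 CPM against 639, 524, 621 and 1027 CPM (2.86, adjusted p = 0.535). MMP9, a gelatinase of neutrophil granules, overlapped as well, with 708 CPM in s1570 and 269 to 781 CPM in CYTO cows (2.96, adjusted p = 1.0). In all, 12 of 13 had a higher mean in CYTO cows, and the 1 called was 7.69%, against 0.412% of all tested genes. An unadjusted p under 0.05 was seen in 7 (53.8%, against 3.94% higher over all genes), and the median log2 fold change was 1.89 beside -0.08.

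The mean log2(CPM + 1) of the neutrophil markers was 5.02, 6.78, 4.49, 4.84 and 3.52 in healthy cows and 6.59, 7.16, 6.40 and 7.09 in CYTO cows. Cow s1570 thus lay inside the range of the CYTO cows and the other 4 healthy cows below it. The part of neutrophil abundance in the difference between groups was not tested. As the groups did not overlap for any of the 43 called genes, s1570 lay below the lowest CYTO cow for all of them by that choice, and only the size of the gap is described: the lowest CYTO cow had 1.65 to 49.3 times the CPM of s1570 (median 2.39). The ratio exceeded 3 for 14 genes, with CCL20, CSF3 and MCEMP1 (49.3, 22.7 and 13.3) the highest of those with a symbol, and was under 2 for 12. Cow s1570 was the highest healthy cow for 34 of the 43.

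**Figure D3:**
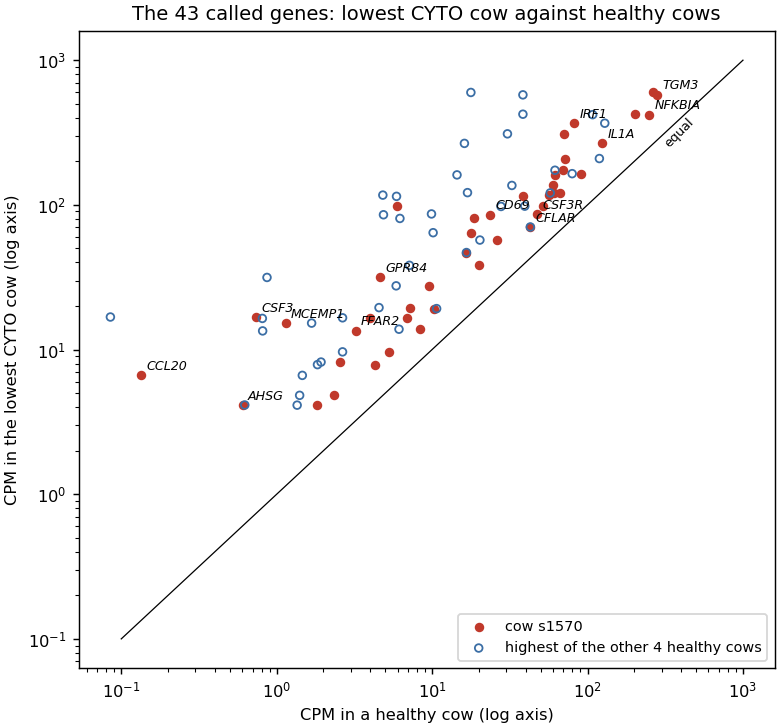
For each of the 43 called genes, the CPM in the lowest CYTO cow (vertical, log axis) is set against the CPM in s1570 (red) and in the highest of the other 4 healthy cows (open blue circles), both on a horizontal log axis. Points above the line are lower in the healthy cow. All points lie above the line because the groups of these genes do not overlap, and what can be read is the distance from it, which in s1570 corresponds to ratios of 1.65 to 49.3.

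Markers of other cells differed less. Of 16 tested macrophage markers 11 had a lower mean in CYTO cows, with a median log2 fold change of -0.35 (-0.27 with TMM factors), and the level of the list was 6.87 to 8.03 in healthy and 6.92 to 7.92 in CYTO cows. MSR1, a scavenger receptor, had -0.79 (adjusted p = 0.496) and VSIG4, a complement receptor of resident macrophages, -0.66 (adjusted p = 0.609), whereas ADGRE1, the F4/80 antigen of mice, had 3.86 (adjusted p = 0.223). The 22 epithelial markers all had a higher mean in CYTO cows, none with an unadjusted p under 0.05 (median 0.44), and 16 of 18 stromal markers had a lower mean (median -0.25, or -0.17 with TMM factors), also none of them with an unadjusted p under 0.05. Cow s2184 was highest of all 9 in the epithelial level (6.42) and lowest in the stromal level (7.68). Whether such shifts in the mixture bear on the called genes was not tested.

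**Figure D4:**
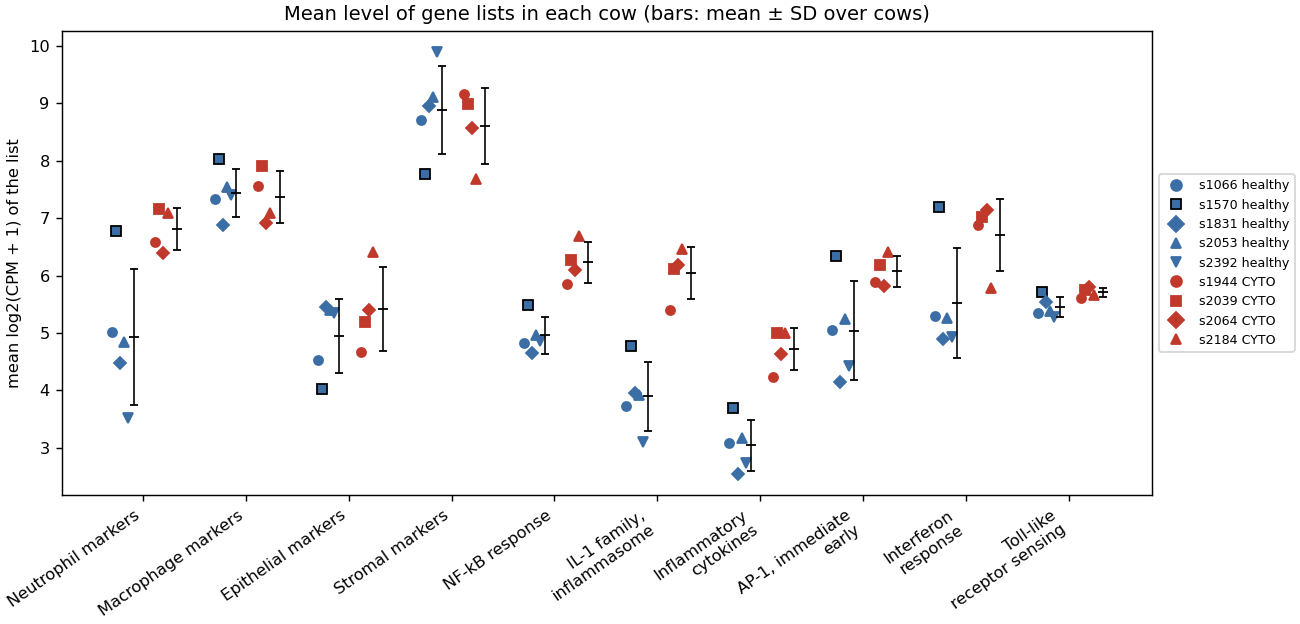
Points give the mean log2(CPM + 1) of the tested genes of each list in each cow, healthy in blue and CYTO in red, with the mean ± SD over cows as bars. Levels of the IL-1 and inflammasome list (3.101 to 4.77 and 5.40 to 6.46), the NF-kB response and the cytokines do not overlap between groups. Cow s1570 (black outline) lies within the CYTO range for neutrophil markers and at 7.20 for the interferon response.

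The list of Toll-like receptor sensing differed less. Of 20 tested genes that sense microbes through Toll-like and related receptors 10 had a higher and 10 a lower mean, none was called, and the median log2 fold change was 0.00 (0.09 with TMM factors). An unadjusted p under 0.05 was seen in 3, all higher (15.0%, against 3.94% of all tested genes). The level of the list was 5.62 to 5.80 in CYTO cows, 5.71 in s1570 and at most 5.54 in the other healthy cows. TLR4, the receptor of lipopolysaccharide, was at 186, 534, 173, 210.1 and 138 CPM in healthy cows and 353, 553, 587 and 611 CPM in CYTO cows (1.23, adjusted p = 0.385). TLR2, the receptor of bacterial lipoproteins, was highest of all 9 cows in s1570, at 423 CPM, against 192 to 361 CPM in CYTO cows (0.91, adjusted p = 1.0).

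The interferon response was split. IRF1 (ENSBTAG00000031231), a transcription factor that both NF-kB and interferons induce, was at 48.5, 82.3, 71.2, 129 and 90.4 CPM in healthy cows and 367, 383, 405 and 710.3 CPM in CYTO cows, without overlap (2.47, SE 0.30, adjusted p = 0.0118). It was the only called gene of 22 (4.55%, against 0.412% of all tested genes). Of these 19 had a higher mean and 11 an unadjusted p under 0.05 (50.0%, against 3.94% higher over all genes), with a median of 1.18. The level of the list did overlap: s1570, at 7.20, exceeded all 4 CYTO cows (5.78 to 7.14), and the other healthy cows had 4.90 to 5.30. ISG15, a ubiquitin-like protein that interferons induce, followed that order, with 316 CPM in s1570 and 112 to 394 CPM in CYTO cows (2.43, adjusted p = 0.499). Immediate early genes of the AP-1 group behaved alike, with 22 of 24 higher (against 35.9% of all tested genes) and none called. An unadjusted p under 0.05 was seen in 10 (41.7%, against 3.94% higher over all genes), with a median of 0.85 beside -0.08. In s1570 the level of these genes was 6.35, within the CYTO range of 5.82 to 6.41. Their member ZFP36, which destabilises TNF transcripts, had 2.86 (adjusted p = 0.109).

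**Figure D5:**
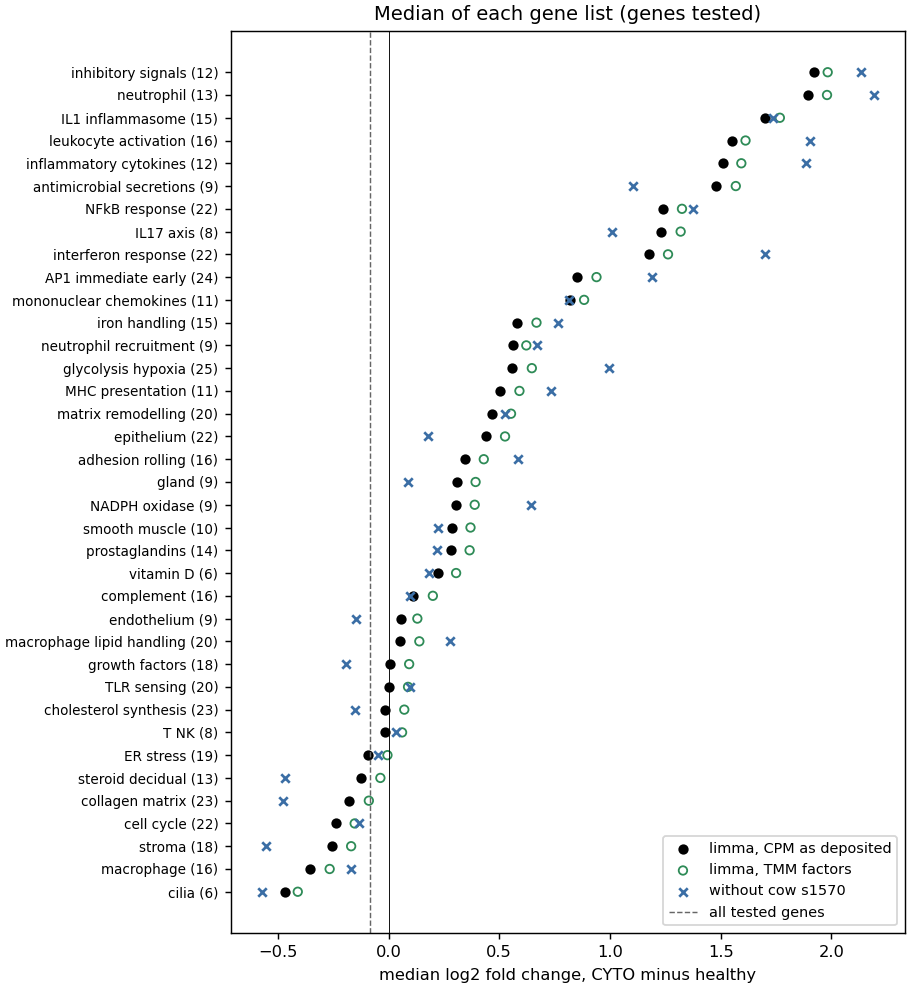
Medians of the log2 fold change over the tested genes of each list with at least 5 of them (their number in brackets), leaving out the genes the study named from these libraries (median 3.38), from CPM as deposited (black), with TMM scaling factors (green circles) and without cow s1570 (blue crosses). The dashed line is the median over all tested genes, -0.08. Inhibitory signals, neutrophil markers and the IL-1 list lie at the upper end (1.92, 1.89 and 1.70), and macrophage markers, stroma and cilia at the lower end.

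Called genes outside the pathway and marker lists described above had roles in lipid and vitamin metabolism, cell survival and the cytoskeleton. DGAT2, which makes triglycerides, was at 3.75, 8.40, 6.12, 5.47 and 5.75 CPM in healthy cows and 13.8, 47.8, 45.8 and 57.5 CPM in CYTO cows, and s1944 was well below the other CYTO cows (2.48, SE 0.39, adjusted p = 0.0306). G0S2, an inhibitor of the lipase that breaks triglycerides down, was at 15.5, 66.6, 10.9, 16.9 and 13.2 CPM and at 122, 460.4, 193 and 382 CPM (3.66, SE 0.55, adjusted p = 0.0239). CYP27B1, the enzyme that activates vitamin D, was at 4.13 to 19.9 CPM and 38.2 to 106 CPM, with s2064 the highest (2.73, adjusted p = 0.0319). It was the only called gene of 6 in the vitamin D list (16.7%, against 0.412% of all tested genes), and the study had named it from these libraries.

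The greatest precision was reached by genes with modest changes. CFLAR, the protein c-FLIP that blocks caspase-8 and so protects cells from death receptors, was at 39.0, 42.7, 41.9, 42.8 and 35.7 CPM in healthy cows and 70.3, 92.8, 98.6 and 76.5 CPM in CYTO cows. Healthy cows, s1570 included, were nearly equal. It differed by 1.04 on the log2 scale (SE 0.16, limma adjusted p = 0.027). DMXL2, which helps to assemble the proton pump of vesicles, was similar, at 8.12 to 10.7 CPM and 19.2 to 26.2 CPM (1.22, SE 0.18, adjusted p = 0.0239).

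Some called genes varied widely among the CYTO cows. TGM3, a transglutaminase known from the epidermis, was at 33.4, 280.4, 18.5, 38.4 and 4.27 CPM in healthy cows and at 576, 1337, 1779 and 4431 CPM in CYTO cows, and had the highest adjusted p of the called genes with a symbol (5.57, SE 0.99, adjusted p = 0.0497). RUBCNL, a regulator of autophagosome maturation, was at 13.2 to 59.9 CPM and 136 to 1113 CPM (3.67, adjusted p = 0.0352). AHSG, the plasma protein fetuin-A that is known from the liver, was at 0.213 to 1.35 CPM and 4.13 to 12.5 CPM (2.46, adjusted p = 0.0279), and with AVIL was among the 2 called genes with a symbol that were highest in s1944. RETN, coding for the secreted protein resistin, was at 0.623 to 3.97 CPM and 16.6 to 46.2 CPM (3.06, adjusted p = 0.0171). AVIL (an actin-binding protein), NFE2 (a transcription factor of blood cell lineages), ARRDC4 (an arrestin-related protein) and SCNN1D (a sodium channel subunit) had log2 fold changes of 2.33, 2.93, 1.997 and 2.72. A further 3 called genes have no symbol in the files, and of these ENSBTAG00000037778 (3.71, adjusted p = 0.0171) and ENSBTAG00000037558 (5.23, adjusted p = 0.0171) had the smallest p.

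Among the CYTO cows s2184 was the highest for 25 and s1944 the lowest for 31 of the 43 called genes. Among healthy cows s2392 was the lowest for 24. On the leading principal component of the 10432 genes (38.6% of the variance) the healthy cows scored 4.79, 60.6, -67.6, -15.5 and -48.7 and the CYTO cows 17.3, 30.0, -1.64 and 20.7. The CYTO cows were close together and lay inside the range of the healthy cows, so that the groups were not separated (difference of means 29.9, exact two-sided permutation p = 0.286). Without s1570 the difference was 56.2 (exact permutation p = 0.0286, the smallest this design of 4 against 4 allows). This healthy cow had the highest score of all, so leaving it out favours such a separation. The p of 0.0286 does not allow for picking this omission among those of each cow, and no conclusion is drawn from it. Leaving out any other cow gave an exact permutation p of 0.25 to 0.629.

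In 50 genes (0.479%) every CYTO cow was below every healthy cow. The most negative log2 fold change among these 50 was -0.96 on the log2 scale, for RASGRP3, an activator of Ras in blood and vessel cells, at 28.2, 19.96, 30.5, 30.9 and 38.5 CPM against 19.0, 17.5, 13.5 and 9.52 CPM (adjusted p = 0.236, the smallest of any gene with a negative change). KLF11, a repressor of the SP/KLF family, was at 70.4 to 92.9 CPM in healthy cows and 35.4 to 63.2 CPM in CYTO cows (-0.67, adjusted p = 0.352). Both were chosen after their values were seen. Of 22 tested cell cycle genes 21 had a lower mean in CYTO cows, with a median of -0.24 (-0.15 with TMM factors) beside -0.08 (0.00) over all genes, and MCM6, part of the replicative helicase, was the only one with an unadjusted p under 0.05 (-0.50, adjusted p = 0.873).

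When s1570 was left out, 142 genes were called, of which 137 were higher and 5 lower, and all 43 remained called. The 5 lower genes were CYP26A1 (-1.99, adjusted p = 0.0228), which degrades retinoic acid, the neuropeptide receptor QRFPR (-2.43, adjusted p = 0.0256), the nuclear envelope protein SYNE2 (-1.21, adjusted p = 0.0369), FRMD3 (-1.53, adjusted p = 0.04) and ENSBTAG00000034586, which has no symbol in the files (-1.86, adjusted p = 0.0145). For CYP26A1 the values were 12.1, 1.68, 10.7, 17.5 and 9.44 CPM in healthy cows and 2.44, 1.28, 1.71 and 4.69 CPM in CYTO cows. In s1570 it was within the range of the CYTO cows. These 5 genes were chosen after their values were seen.

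Lists of repair and lipid mediators held no called gene, from which nothing is read, since at 0.412% called over all genes lists of this size would seldom hold any. Beside -0.08 over all genes, the lists were prostaglandins (14 tested, median 0.28, none with an unadjusted p under 0.05), complement (16 tested, median 0.11), collagens and other matrix (23 tested, median -0.18), cholesterol synthesis (23 tested, median -0.02), stress of the endoplasmic reticulum (19 tested, median -0.09) and steroid receptors with decidual factors (13 tested, median -0.13). PTGS2, the inducible cyclooxygenase, ranged from 73.0 to 2128 CPM in healthy cows and from 331 to 4486 CPM in CYTO cows (1.70, adjusted p = 1.0). Among antimicrobial secretions SLPI, a protease inhibitor of mucosal surfaces, did not overlap, at 0.128, 0.202, 4.19, 2.76 and 0.144 CPM against 4.51, 10.96, 84.9 and 29.5 CPM, and was not called (3.37, adjusted p = 0.174). S100A12, the most abundant of the antimicrobial genes given here, overlapped (172 to 3680 CPM against 1957 to 4682 CPM).

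The remaining cows place these values. Counting, for each cow, how many of the 43 called genes exceeded the highest inflamed healthy cow, the 5 healthy cows below the PMN threshold had 2 to 12 and the 5 cows below it that developed CYTO had 2 to 11. Cow s1378, outside the study's set, had 43 of 43. The 8 cows labelled Clinical, which had purulent vaginal discharge at 21 DPP, ranged from 1 to 43: s2683 had 43 and s1239 had 42, while s1194, s2622 and s1829 had 1, 2 and 4. For CSF3 the Clinical cows spanned 0.0395 to 114 CPM with a median of 0.393 CPM. These counts are descriptions, since the 43 genes were chosen on the 9 inflamed cows.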

How the data were processed

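Per the labels and the study's methods, RNA of cytobrush cells from 30 cows was sequenced as 100 bp single-end reads in 5 pools of 6 libraries; which library was in which pool is not given in the sources used here. The authors aligned reads with STAR to UMD3.1, kept unique alignments with at most 2 mismatches and counted them with featureCounts on Ensembl release 86. The deposited values are CPM computed by the authors from counted reads, without scaling factors, and they list 10476 genes that reached 1 CPM in no fewer than 5 libraries. Columns of the authors' own tests (fold changes, likelihood ratios, p-values) were not used. All values (100%) of the 9 cows were whole multiples of 1 read within 0.01, from which reads were recovered; 4 libraries had under 100 low values (up to 20 reads) on which this could be judged.

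Healthy and CYTO cows were compared with limma 3.58.1 (trended eBayes, R 4.3.3) on log2(CPM + 1), without covariates, over genes that reached 1 CPM in 4 or more of these 9 cows, with Benjamini-Hochberg adjustment over all of them. A count model had been foreseen for counts; as the values are CPM, edgeR 4.0.16 and DESeq2 1.42.0 on recovered reads served as alternatives, beside other pseudocounts (0.1 and 5 CPM), filters (none, 5 CPM), RLE and TMM factors, inclusion of s1378 and omission of each cow. The fits with limma, edgeR and DESeq2 were tested on simulated counts with known changes. Of 41 gene lists 40 had tested genes; lists carry no test and are given by counts and medians. The genes named are the 12 with a symbol in each direction that had the smallest p, a log2 fold change over 1 and no overlap of groups, up to 4 members of each list with the smallest p, those the study named, and a set of cytokines and receptors (none lower met the rule). The other called genes, genes that came close and those marked as such were added after their values were seen. Cows, lists and genes were chosen with earlier results of these data known. Separate animals are the replicates. Gene symbols came from the files for 9288 genes, and RefSeq (ARS-UCD2.0) was used for synonyms only. Some genes are not reported here.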

Additional observations from a re-analysis of the deposited data

Results flagged for a closer look

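Among 232 groups of values checked (the genes named in the report and the gene list levels, each within healthy and within CYTO cows), 11 held a cow whose distance to its nearest neighbour was large relative to the whole range of the group. Chance flags about 1 in 20 groups, here about 12, so the number is no more than chance would give, but 7 of the 11 were cow s1570. In s1570 the values were CSF3 0.739 CPM, NFKBIA 249 CPM, G0S2 66.6 CPM, NLRP12 6.85 CPM and CASS4 56.2 CPM, each the highest of the healthy cows, SYNE2 33.7 CPM, the lowest of them, and an interferon response level of 7.201, the mean log2(CPM + 1) of its genes. Cow s1831 had 119 CPM of Mail (NFKBIZ), above the other healthy cows. Within the CYTO cows, s2184 stood apart upwards with a rounded 710.0 CPM of IRF1 and 133 CPM of ZC3H12A, and s1944 downwards with 13.8 CPM of DGAT2.

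Cow s1378, labelled sub-clinical and outside the study's set, entered the comparison only as an alternative, and in it 43 of the 43 called genes were above every inflamed healthy cow. As the paper excluded cows for possible clinical metritis at sampling, s1378 cannot be read as a further cow of the CYTO group. The counts in the 10 cows below the PMN threshold were 2 to 12.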

How the results depend on the processing

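The 43 genes called became 14 with edgeR, 129 with DESeq2, 77 with s1378 and 2 to 142 when each cow was left out (2 without s2039, 3 without s2064, 10 without s1066 or s2184, 15 without s2053 or s2392, 16 without s1831, 42 without s1944, 142 without s1570). Differences lower in CYTO at an unadjusted p under 0.05 went from 93 to 47 with RLE factors, 44 with TMM factors, 60 with edgeR, 320 with s1378 and 29 to 689 when each cow was left out (144 without s1831, 43 without s2053, 47 without s2039, 29 without s2184, 689 without s1570), while those higher, 411 with all cows, ranged from 316 to 614. The difference on the leading component was 16.3 to 56.2 when each cow was left out. Neither pseudocounts nor filters moved these counts by over 1.5 times. No called gene changed direction under an alternative in which it was tested (40 of the 43 were tested with the 5 CPM filter, 42 without any of the CYTO cows, and 43 otherwise). As the groups did not overlap for any of the 43, omitting a cow or changing the pseudocount or filter could not have reversed them. With TMM factors the median over all genes moved from -0.08 to 0.00. No paired analysis was possible because the groups hold different animals.

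With 5 and 4 cows the called list rests on the spread among few animals. Genes below the authors' filter were not analysed here, and low genes such as CSF3 and IL17 rest on few reads in healthy cows. Sequencing pools are unknown and could not be modelled, and the causes of the shifts listed above were not tested.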
